A study of Homo sapiens with 10 samples.

Results

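Histone H3 acetylated at lysine 18 (H3K18ac) and at lysine 27 (H3K27ac) was compared within C4-2BER cells. Peaks of both marks that shared at least 1 bp were merged into regions, and each region was classed as H3K18ac only, H3K27ac only or both marks. The 197948 H3K18ac peaks and 72971 H3K27ac peaks gave 199876 regions, against 247827 regions when the lists of both cell lines of the series were merged and 198929 in C4-2B alone. The human prostate adenocarcinoma line C4-2B grows without androgen, and C4-2BER was derived from it by resistance to the antiandrogen enzalutamide, is kept under that drug and is labelled neuroendocrine-like (NE-like). In each line, each mark was profiled by ChIP-Seq in 2 libraries beside 1 input library, from cells fixed with disuccinimidyl glutarate and formaldehyde. The authors merged the replicates before peak calling, so each peak has 1 fold enrichment over local background and no replicate error, and no test between marks was possible. C4-2BER was made from a single parental line by drug selection, and both marks were read in bulk chromatin, so a mark present in few cells and a weak mark in all cells cannot be told apart.

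Histone tails are acetylated by the paralogous acetyltransferases p300 and CBP, which write both lysine 18 and lysine 27, and the acetyl groups are removed by deacetylases and read by bromodomain proteins. H3K27ac is widely used to tell active enhancers and promoters from poised ones, and H3K18ac is found at the same kinds of elements. In the prostate, luminal cells use factors such as FOXA1 and HOXB13, whereas neuroendocrine cells carry secretory granule and synaptic proteins such as chromogranin A and synaptophysin.

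The sequences of a distal region of both marks and one of H3K27ac only are printed here to show what such regions look like. Each is the middle 200 bases of the strongest region of its class at least 10000 bp from a transcription start site (TSS) whose 32 central bases occur at 1 place in GRCh38. CpG dinucleotides, the sites of DNA methylation, are in capitals, and the plus strand is given.
Both marks, chr10:130301172-130301371 in an intron of LINC02646: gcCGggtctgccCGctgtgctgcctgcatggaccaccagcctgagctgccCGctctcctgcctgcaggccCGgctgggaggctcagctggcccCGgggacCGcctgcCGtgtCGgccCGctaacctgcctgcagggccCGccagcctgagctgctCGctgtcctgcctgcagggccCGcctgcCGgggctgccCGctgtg
H3K27ac only, chr6:140463404-140463603 in an intron of ENSG00000288714: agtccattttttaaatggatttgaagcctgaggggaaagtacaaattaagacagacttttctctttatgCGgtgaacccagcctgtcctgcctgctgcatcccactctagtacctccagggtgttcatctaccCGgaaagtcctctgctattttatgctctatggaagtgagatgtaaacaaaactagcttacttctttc
The first stretch was CpG-rich, with 14 CpG in 200 bases and 76.0% GC, and the second held 2. Such a contrast did not hold for the classes as a whole, whose median GC content was 49.4% for both marks, 51.2% for H3K18ac only and 51.3% for H3K27ac only, all above the 40.9% of the genome.

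In the full lists most H3K27ac peaks overlapped an H3K18ac peak by at least 1 bp, whereas most H3K18ac peaks stood without H3K27ac. Both marks shared 62560 regions (31.3%, 95% Wilson interval 31.1 to 31.5, counting error only), 131844 regions carried H3K18ac only (66.0%) and 5472 carried H3K27ac only (2.74%, interval 2.67 to 2.81). Of the H3K27ac peaks, 92.5% lay in regions of both marks, and of the H3K18ac peaks 33.4%. In bases the imbalance was smaller, since regions of both marks covered 213.0 Mb, H3K18ac-only regions 125.0 Mb and H3K27ac-only regions 4.86 Mb. Of the 213.0 Mb, 122.6 Mb lay under peaks of both marks, which is 84.7% of H3K27ac bases and 38.2% of H3K18ac bases. These shares depend on how deep each list was called. With the H3K18ac list cut to its strongest peaks, as many as the H3K27ac list holds, 50495 regions carried both marks, 20603 H3K18ac only and 17980 H3K27ac only. With a fold enrichment of at least 4 in both lists, H3K27ac-only regions (7024) outnumbered H3K18ac-only regions (4265).

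Sharing followed the strength of the peak. When the H3K18ac peaks were divided into 10 equal groups by fold enrichment, 6.56% of the weakest group and 99.3% of the strongest lay in regions of both marks. The strongest group held 19664 shared peaks and 131 H3K18ac-only peaks. For H3K27ac the share was already 72.8% in the weakest group and reached 100% in the strongest, where 7297 of 7297 peaks were shared. The highest fold enrichment of an unshared peak was 5.73 for H3K18ac and 6.75 for H3K27ac, against 16.5 and 36.7 among shared peaks.

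**Figure D1:**
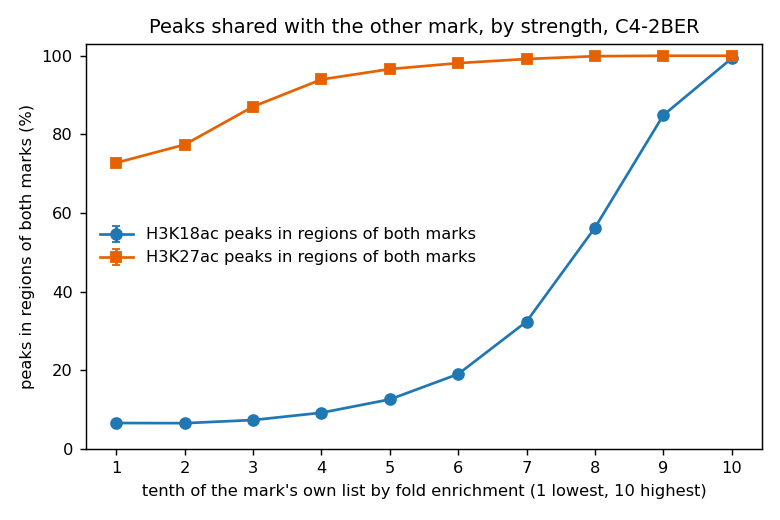
Share of peaks in regions of both marks (y axis, percent) for 10 equal groups of each mark's own list ordered by fold enrichment (x axis). Points are shares and bars are 95% Wilson intervals. The H3K18ac line climbs from 6.56% to 99.3%, whereas the H3K27ac line starts at 72.8%.

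The median fold enrichment of H3K18ac was 3.61 in shared peaks and 2.38 in unshared ones, which are percentiles 82.3 and 35.9 of that list. For H3K27ac it was 3.52 and 2.26, at percentiles 53.5 and 14.1. Shared peaks were also wider, and width and fold enrichment moved together, so the ranks were compared within 10 equal groups of peak width. In the narrowest group the percentile of shared peaks exceeded that of unshared peaks by 3.72 points for H3K18ac and 8.13 points for H3K27ac. In the other groups of width the difference ran from 23.5 to 54.8 points for H3K18ac and from 25.4 to 62.5 points for H3K27ac.

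Regions of both marks had a median width of 2259 bp (quartiles 1217 and 4065), H3K18ac-only regions 688 bp (353 and 1191) and H3K27ac-only regions 703 bp (380 and 1104). A merged region is wider by construction, so single peaks were compared as well. H3K18ac peaks had a median width of 1941 bp in regions of both marks and 688 bp alone, and H3K27ac peaks 1255 bp and 703 bp.

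**Figure D2:**
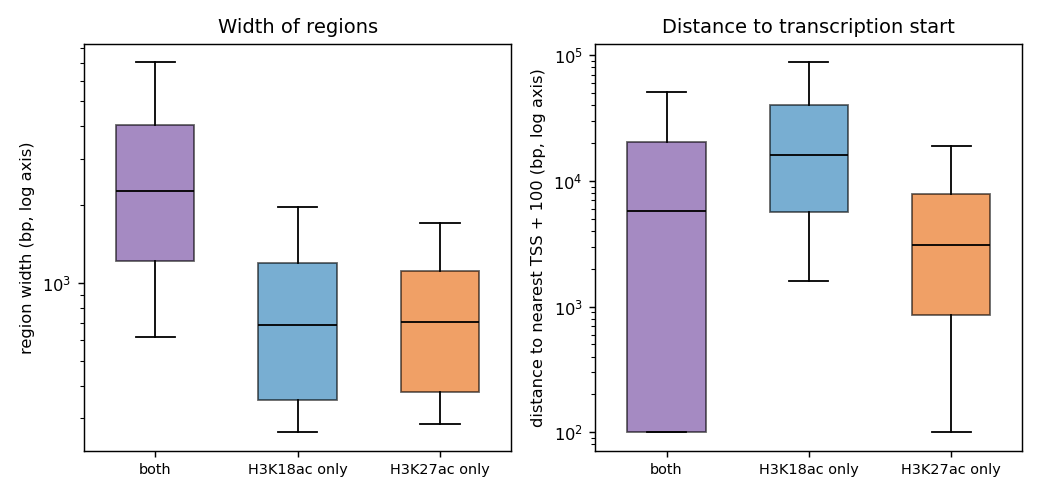
Width of regions (left, bp, log axis) and distance to the nearest TSS with 100 bp added (right, bp, log axis) in the 3 classes. Lines in boxes are medians, boxes span the quartiles and whiskers the 10th to 90th percentiles. Regions of both marks are the widest, with a median of 2259 bp, and H3K18ac-only regions the farthest from a TSS, with a median of 16071 bp.

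The 5 widest regions of both marks lay over ZMIZ1, a transcriptional coactivator (172670 bp), EEFSEC, an elongation factor for selenocysteine (137433 bp), CASZ1, a zinc finger transcription factor (136067 bp), RXRA, a nuclear receptor (130213 bp), and GSE1 (126264 bp), a component of corepressor complexes. H3K18ac covered at least 97.8% of each of the 5 regions. H3K27ac covered between 88.1%, over EEFSEC, and 98.8%, over GSE1. At EEFSEC the H3K27ac signal was called as 9 peaks and the H3K18ac signal as 2.

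Within regions of both marks, a high fold enrichment of one mark went with a high one of the other. Spearman's rho was 0.83 over 62560 regions, 0.90 over the 21843 that overlapped a promoter window and 0.71 over the 24769 at least 10000 bp from a TSS. It is given as a description, because the marks share the cells, the input library and the width of the region, and within 10 groups of width rho ran from 0.58 to 0.90. The promoter window was 2000 bp upstream to 500 bp downstream of any annotated TSS of a protein-coding or lncRNA gene. Within each mark, fold enrichment was higher at starts than far from them. The median fold enrichment of H3K27ac was 3.17 in regions of both marks at least 10000 bp from a TSS and 9.40 in those with a TSS inside. For H3K18ac the same medians were 3.45 and 5.06. The scale of fold enrichment differs between lists, so only the change within a mark can be read from these values.

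The layout of the peaks differed between distal regions and promoters. Of regions of both marks, 56019 (89.5%) held 1 peak of each mark. In these, the H3K27ac peak lay within the H3K18ac peak in 52.8%, the reverse held in 17.97%, and the peaks were staggered in 29.2%. At least 10000 bp from a TSS, H3K27ac was the wider mark in 17.3% of 23043 regions, with a median width of 826 bp against 1539 bp for H3K18ac. At 8314 protein-coding promoters with the TSS inside 1 peak of each mark, H3K27ac was the wider mark in 57.8% (Wilson interval 56.7 to 58.9), and the medians were 2415 bp and 2374 bp.

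At these promoters H3K27ac reached farther into the gene. It ended downstream of the H3K18ac peak in 64.9% (interval 63.9 to 65.9), with a median excess of 79 bp (quartiles −98 and 224). Upstream it reached farther in 52.9%, with a median excess of 14 bp (quartiles −214 and 118). The same asymmetry was seen without selecting on peaks, over 1 TSS of each of the 20033 protein-coding genes. At the TSS itself, 75.8% of genes lay under H3K18ac, 66.0% under H3K27ac and 0.679% under H3K27ac without H3K18ac. At 1400 bp downstream, 10.7% lay under H3K27ac without H3K18ac and 8.76% under the reverse. At 1400 bp upstream these shares were 7.05% and 9.29%.

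**Figure D3:**
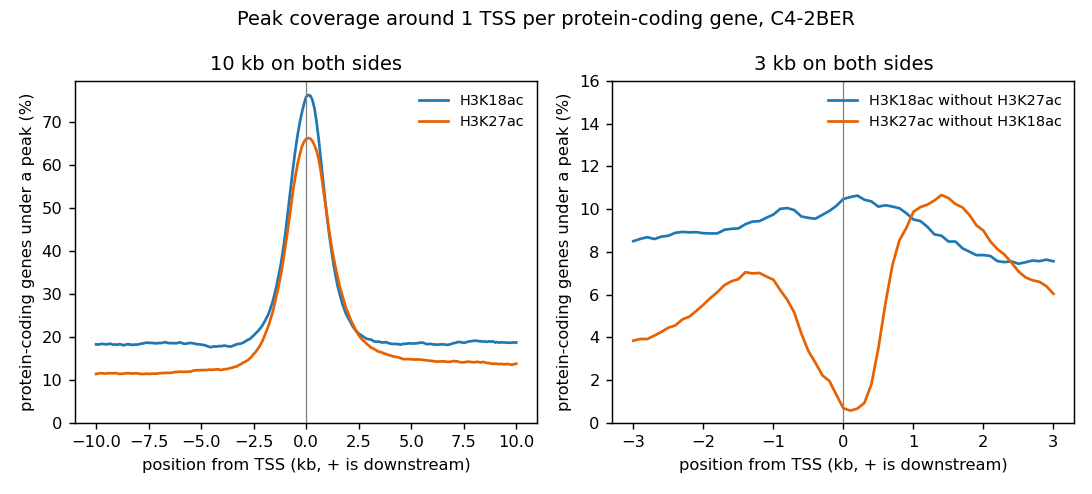
Share of protein-coding genes under a peak (y axis, percent) by position from 1 TSS per gene (x axis, kb, positive downstream) for each mark (left) and for each mark without the other (right). H3K27ac without H3K18ac is at 0.679% at the TSS, 7.05% at 1400 bp upstream and 10.7% at 1400 bp downstream.

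Regions of H3K18ac only lay the farthest from genes' starts, and regions of H3K27ac only overlapped genes the most often, at 90.9% against 77.8% for both marks and 62.9% for H3K18ac only. The median distance to the nearest TSS was 5627 bp for both marks, 16071 bp for H3K18ac only and 2987 bp for H3K27ac only. A TSS lay inside 30.1% of regions of both marks, 4.19% of H3K18ac-only regions and 12.02% of H3K27ac-only regions. The order of both marks and H3K27ac only depended on the peaks used. With a fold enrichment of at least 4 the medians were 0 bp and 7453 bp, and with equal numbers of peaks 5238 bp and 5500 bp, while H3K18ac-only regions remained the farthest in each.

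The centres of H3K18ac-only regions were spread over annotated sequence much as the genome is. Promoter windows held 7.34% of them and 7.03% of genomic bases, exons outside these windows 3.17% and 3.28%, introns 52.8% and 50.4%, and intergenic sequence 36.7% and 39.3%. Of the centres of regions of both marks, 25.1% lay in promoter windows and 23.5% in intergenic sequence. Of the centres of H3K27ac-only regions, 24.5% lay in promoter windows, 11.5% in exons and 9.06% in intergenic sequence.

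H3K27ac-only regions lay nearer to regions of both marks than H3K18ac-only regions did. Their median gap to the nearest of the 62560 regions of both marks was 3806 bp (quartiles 1696 and 8693), against 11431 bp (3981 and 30720) for H3K18ac only. Such a region lay within 5000 bp of 58.4% (interval 57.1 to 59.7) and 29.6% of them. This measure was chosen after the data were seen and was not recomputed under the other settings. Away from starts, at least 2500 bp from a TSS, 80.4% of H3K27ac-only regions lay in a protein-coding gene, against 53.0% for both marks and 44.9% for H3K18ac only. The genes that hosted them were shorter, with a median length of 59358 bp against 149539 bp and 200067 bp for the other two classes. Their median position was 55.8% of the way along the gene, against 47.6% and 48.3%. Of the 1696 genes that hosted H3K27ac-only regions, 97.3% had both marks at their promoters. The share was 86.7% for host genes of both marks, 78.5% for those of H3K18ac only and 73.9% over all protein-coding genes.

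The genes that held most regions of a class were counted next, and their function was not tested. PPFIA2, a synaptic scaffold of the liprin family, held 11 H3K27ac-only regions, and TRRAP, a subunit of histone acetyltransferase complexes, held 9 in 172899 bp. For H3K18ac only, PTPRN2, a phosphatase-like protein of secretory granules, held 124, DAB1, the adaptor of reelin signalling, 118, NAALADL2 116 and the lipoprotein receptor LRP1B 111. For both marks, PRKD1 held 76, the neural adhesion gene NCAM2 75, LUZP2 71, PPP3CA 55, LIMCH1 52 and NLGN1, a synaptic adhesion gene, 50. The counts were not divided by gene length, which was 1551957 bp at DAB1, 1048768 bp at PTPRN2 and 898089 bp at NLGN1. EFNA5, an ephrin ligand, held 51 regions of both marks and 7 of H3K27ac only. NAALADL2 was among the leading genes of each class, with 104 regions of both marks, 116 of H3K18ac only and 6 of H3K27ac only over 1371976 bp.

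Unshared regions lay more often in repeated sequence. The 32 central bases occurred at more than 1 place in the genome in 15.2% of regions of both marks, 22.1% of H3K18ac-only regions and 20.05% of H3K27ac-only regions, against 17.0% of positions taken every 20000 bp. Among the 100 strongest regions of each class, the central bases occurred at 1 place in 100 regions of both marks (Wilson interval of the share 96.3% to 100%), 62 regions of H3K18ac only and 53 regions of H3K27ac only. Among the 100 weakest the counts were 82, 73 and 83. Of the 5 strongest distal H3K27ac-only regions, those near SYT15B, ENSG00000290121 and DANT1 had central bases with 3, 7 and 1066 copies, and those near ENSG00000288714 and in LRP1B had 1. Of the 5 strongest distal H3K18ac-only regions, those near ENSG00000235337 and ENSG00000270460 had 43 and 45 copies. The region near ENSG00000250532 had 2, and those in DLG2 and near SILC1 had 1. Among the 5 strongest distal regions of both marks, the region near INSR had 368 copies and the others had 1. The part of multiply placed reads in these peaks was not tested.

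Short motifs separated the classes little. In the central 300 bp of regions at least 10000 bp from a TSS, the AP-1 site TGANTCA was found on either strand in 9.14% of regions of both marks and 8.02% of H3K18ac-only regions, against 7.71% of 35116 RefSeq promoter windows of 300 bp. The GATA site AGATAA was found in 14.5% and 11.7%, against 10.3% of promoter windows. The E-box CAGCTG, read by proneural factors, was found in 15.2% and 16.4%, and the forkhead site TGTTTAC in 6.68% and 4.95%. The GATA, forkhead and E-box sites varied with GC content. From the lowest to the highest of 5 groups of GC content, AGATAA went from 26.8% to 3.95% of regions of both marks. TGTTTAC was at 7.74% in the lowest group, 3.17% in the middle one and 12.6% in the highest. For CAGCTG the class difference changed direction, with 8.19% of both marks and 7.32% of H3K18ac only in the lowest group. In the highest group these shares were 24.5% and 27.8%. The windows had a median GC content of 48.7% for both marks and 50.7% for H3K18ac only. Over all 199876 regions the promoter sites differed more. The ETS site CCGGAAG was found in 2.79% of regions of both marks and 1.52% of H3K18ac-only regions, and the SP/KLF site GGGCGG in 17.4% and 10.8%.

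Some of the forkhead matches in GC-rich windows belonged to 1 repeated stretch. Among distal regions of both marks with the highest GC content, 142 of 534 matches stood in the same 21 letters, shown here with the motif in capitals.
Repeated forkhead match: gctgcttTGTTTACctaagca
These letters are known from the 5′ end of LINE-1 retrotransposons. Of 1991 copies in GRCh38, 227 (11.4%) lay in regions of both marks, 472 (23.7%) in H3K18ac-only regions, 20 in H3K27ac-only regions and 1272 (63.9%) outside any region. That made 1.07 copies per Mb of regions of both marks, 3.78 per Mb of H3K18ac-only regions and 4.11 per Mb of H3K27ac-only regions. The regions of both marks with a copy were narrow, with a median width of 730 bp, and 82.4% of them lay at least 10000 bp from a TSS.

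Genes were then classed by the marks with a peak in any of their promoter windows. Of 20033 protein-coding genes, 14800 (73.9%) had both marks, 2261 (11.3%) H3K18ac only, 68 (0.339%) H3K27ac only and 2904 (14.5%) neither. Of 18866 lncRNA genes, the shares were 36.3%, 20.7%, 1.3% and 41.7%. Promoters with both marks were rich in CpG, with a median of 7.59 CpG per 100 bp within 500 bp of the TSS, against 2.80 for H3K18ac only, 3.20 for H3K27ac only and 1.20 for neither. Promoter peaks of H3K18ac had a median fold enrichment of 6.02 with both marks and 2.53 with H3K18ac only. A promoter class counts any TSS of a gene and is not the class of a region. Of the 2261 promoters with H3K18ac only, the H3K18ac peak of 254 (11.2%) met H3K27ac elsewhere along its length, and of the 68 with H3K27ac only, the peak of 18 (26.5%) met H3K18ac.

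The promoters with the highest mean percentile of both marks were those of NFE2L2, ARID1B, QKI, ICA1 and UBXN4. NFE2L2, the master regulator of the antioxidant response, held the highest value of each list, with 16.5 for H3K18ac and 36.7 for H3K27ac. ARID1B, a subunit of the BAF chromatin remodeller, had 14.0 and 35.8, and QKI, an RNA-binding splicing regulator, 13.8 and 34.7. At each of these 5 promoters the H3K27ac peak began before and ended after the H3K18ac peak.

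The strongest promoters with H3K18ac only lay in long H3K18ac peaks, and were named by that rule. FAM240C had a fold enrichment of 9.69, CNTNAP1, an axonal adhesion protein, 6.89, CDC42EP5, an effector of the GTPase CDC42, 6.58, HOXA5, a homeobox factor, 6.36, and TLR9, a receptor for microbial DNA, 6.26. The 68 promoters with H3K27ac only had low values, at a median of 2.69. The strongest were 4 gene models without a symbol, ENSG00000251357 (16.8), ENSG00000288699 (16.2), ENSG00000261915 (14.9) and ENSG00000284820 (14.4), followed by C19orf67 (13.5), whose window met the end of an H3K27ac peak that began upstream of the gene. The values of all 5 named promoters in each class exceed those of any unshared peak of the mark, so their peaks met the other mark outside the promoter window.

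Among promoters with both marks, the ranks parted most at genes where the strongest peaks of the marks did not overlap or differed widely in extent. P2RX1, an ATP-gated channel, had H3K18ac at percentile 98.1 and H3K27ac at 2.25, in peaks that did not overlap. PRR35 had 96.7 and 5.42, and MDFIC 90.5 and 1.98, with the H3K27ac peak inside the H3K18ac peak at both genes. ALOX15B, a lipoxygenase of prostate epithelium, had 93.5 and 2.61, and PHGR1 94.5 and 5.30. In the other direction, ENSG00000267168 had 7.41 for H3K18ac and 87.8 for H3K27ac, CPT1B, the muscle carnitine palmitoyltransferase, 31.1 and 97.0, and ENSG00000266953 8.19 and 72.7. At CWF19L2 both peaks lay over the same start, with 0.101 for H3K18ac and 66.7 for H3K27ac.

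The markers of the labelled cell type were checked next, with the limit that a promoter peak is not expression. Of 10 luminal markers, 10 had both marks, with a median fold enrichment of 7.37 for H3K18ac and 13.8 for H3K27ac. Of 10 neuroendocrine markers, 3 had both marks (SYP and ENO2 among them), 4 had H3K18ac only (CHGA, NCAM1, INSM1 and SCG3) and 3 had neither (CHGB, NEUROD1 and SCG2). Of 10 markers of blood, endothelial and stromal cells, 4 had both marks, 4 H3K18ac only and 2 neither. Over all protein-coding genes 73.9% had both marks. These classes count any annotated TSS, and the strongest H3K18ac promoter peak of NCAM1, chr11:113240993-113243437, lay inside the gene, which starts at 112961275. With 1 TSS per gene, both marks, H3K18ac only and neither stood at 3, 3 and 4 neuroendocrine markers. For the markers of other cell types these counts were 3, 4 and 3, and 13370 of 20033 protein-coding genes had both marks. In C4-2B, 10 luminal markers had both marks, and of the neuroendocrine ones 2 had both and 7 H3K18ac only. Promoter peaks thus did not set the neuroendocrine markers of C4-2BER above those of other cell types. They cannot give the identity of the cells, which are called C4-2BER here.

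The luminal list carried both marks at 26 of 26 promoters, against 73.9% of protein-coding genes. TMPRSS2, a serine protease of prostate epithelium, had 9.08 and 20.03, and PLPP1, a lipid phosphatase, 10.2 and 18.5. KLK3, which encodes prostate-specific antigen, had 7.28 and 13.8. The lowest values in the list were 4.32 for H3K18ac and 2.91 for H3K27ac.

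Neuroendocrine marker genes most often carried H3K18ac alone in the full lists and neither mark in stricter ones. Of 26, 9 had both marks, 13 H3K18ac only (50%, against 11.3% of protein-coding genes), 0 H3K27ac only and 4 neither. With equal numbers of peaks, H3K18ac only was left at 2 and neither at 15, with a fold enrichment of at least 4 at 1 and 19, and with a −log10 q of at least 5 at 4 and 15. Of all 20033 protein-coding promoters, these settings left H3K18ac only at 641, 506 and 973, and neither mark at 4524, 6243 and 5186. ENO2, neuron-specific enolase, had the strongest H3K27ac of the list at 14.3, with 4.33 for H3K18ac. TUBB3, a neuronal tubulin, had 5.72 for H3K18ac and 7.12 for H3K27ac, and SYP, synaptophysin, 3.30 and 5.67. SNAP25, a protein of synaptic vesicle fusion, had 4.08 for H3K18ac and 1.957 for H3K27ac, at percentiles 87.2 and 0.414. The H3K18ac-only members were weak in H3K18ac too, from 2.21 at KCNB2 to 3.30 at UCHL1, with CHGA at 2.29. In C4-2B, the same list had both marks at 11 promoters, H3K18ac only at 13 and neither at 2, and the luminal list had both at 26.

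Of 26 neuroendocrine transcription factors, 19 had both marks (73.1%, against 73.9% of protein-coding genes), 6 H3K18ac only (23.1%, against 11.3%) and 1, NEUROD1, neither. The strongest was REST, the repressor of neuronal genes, with 7.61 for H3K18ac and 19.5 for H3K27ac. HES6 had 8.27 and 14.1, and POU2F3, the tuft cell factor, 5.17 and 11.8. The H3K18ac-only members were NEUROG3, INSM1, POU3F4, FOXA2, PAX5 and ATOH1, between 2.56 and 3.20. In C4-2B the counts were 17, 9 and 0.

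Of 40 genes of axon guidance and neuronal adhesion, 34 had both marks (85.0%, against 73.9% of protein-coding genes), 5 H3K18ac only (12.5%, against 11.3%) and 1, SEMA3A, neither. NRP1, the semaphorin coreceptor, had 12.9 for H3K18ac and 25.9 for H3K27ac, EPHA2 6.81 and 17.7, and DAB1 8.13 and 15.9. The H3K18ac-only members were L1CAM, CNTN1, ROBO2, DCC and VCAN, with ROBO2 highest at 3.98.

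Writers, erasers and readers of acetyl-lysine carried both marks at 39 of 40 promoters (97.5%, against 73.9% of protein-coding genes). CREBBP, the gene of the acetyltransferase CBP, had 11.1 and 24.9 for H3K18ac and H3K27ac, SIRT5 10.3 and 24.6, and BAZ2B 10.1 and 21.95. The exception was BRDT, the testis bromodomain protein, with H3K18ac only at 4.03. Immediate early and AP-1 genes had both marks at 22 of 22 promoters, against the same 73.9%, led by JUN (9.13 and 21.6). Cytosolic ribosomal protein genes had both at 85 of 87 (97.7%), the exceptions being RPL39L with H3K18ac only and RPS4Y2 with neither.

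Epithelial keratin and junction genes had both marks at 25 of 30 promoters (83.3%, against 73.9% of protein-coding genes). These included OCLN, a tight junction protein (10.3 and 22.8), ESRP1, an epithelial splicing factor (9.21 and 23.7), and EPCAM (8.54 and 20.2). The basal keratins KRT5, KRT14 and KRT17, with KRT20, had H3K18ac only at 2.47 to 3.22, and TP63, the basal cell factor, had neither. Other genes of basal cells had both marks, with 2.89 and 2.77 at KRT15, 7.21 and 13.1 at ITGB4, an integrin, and 4.76 and 10.8 at CDH3, P-cadherin. Of 25 markers of other cell types, 11 had both marks, 7 H3K18ac only and 7 neither. ACTA2, smooth muscle actin, was the strongest of them with 9.45 and 24.5.

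HOX genes had both marks at 29 of 39 promoters (74.4%, against 73.9% of protein-coding genes), H3K18ac only at 9 (23.1%, against 11.3%) and neither at HOXD4. HOXB13, the prostate homeobox factor, had 7.70 and 19.8, and HOXA7 7.88 and 15.97. HOXD genes made up 5 of the 9 with H3K18ac only, and HOXA5 was the strongest at 6.36. Replication-dependent histone genes had both marks at 50 of 69 (72.5%, near the 73.9% of protein-coding genes), H3K18ac only at 8 and neither at 9. Another 2 members, H4C12 (3.20) and H4C9 (2.38), had H3K27ac only (2.90%, against 0.339% of protein-coding genes). Counts at these near-identical genes are uncertain, since reads can be shared between copies. Of 246 ZNF genes of chromosome 19, 227 had both marks (92.3%, against 73.9%). Of 400 olfactory receptors, 9 had both, 45 (11.3%, as of protein-coding genes) H3K18ac only and 346 neither.

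**Figure D4:**
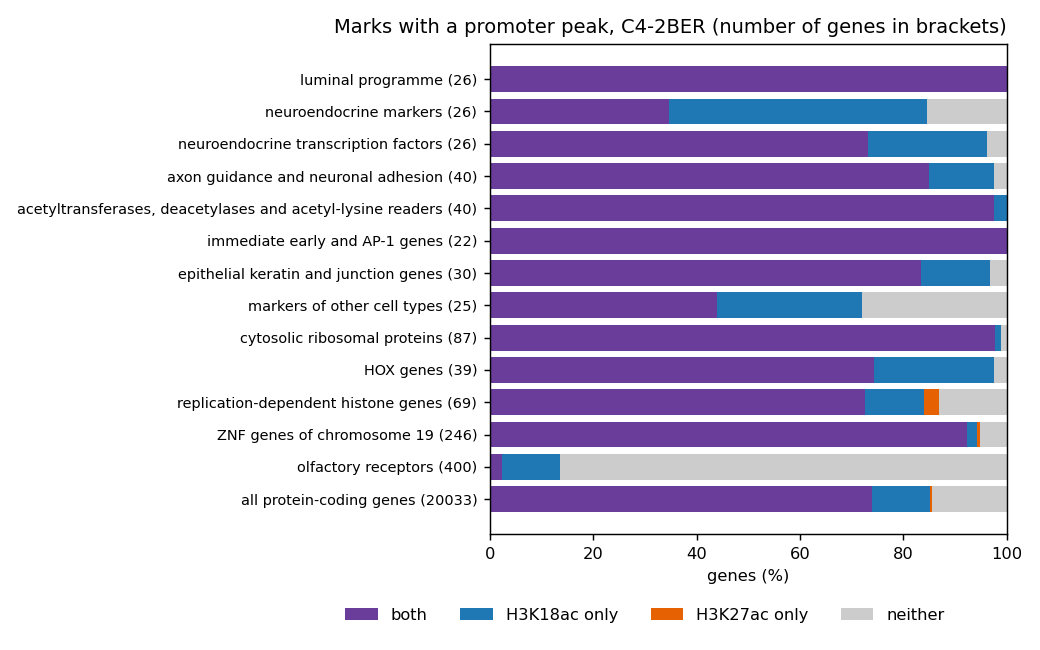
Share of genes (x axis, percent) with a promoter peak of both marks, H3K18ac only, H3K27ac only or neither in each gene list (y axis, number of genes in brackets). All luminal and immediate early promoters carry both marks, whereas the widest H3K18ac-only bar is that of neuroendocrine markers, at 50%, or 13 of 26, which falls to 2 with equal numbers of peaks.

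To set the promoter classes beside sequence, 200 bases from 250 to 51 bp before the RefSeq start (GRCh38.p14) are printed for 1 gene of each class, on the gene's strand and with CpG in capitals.
FOXA1, both marks, chr14:37595300-37595499: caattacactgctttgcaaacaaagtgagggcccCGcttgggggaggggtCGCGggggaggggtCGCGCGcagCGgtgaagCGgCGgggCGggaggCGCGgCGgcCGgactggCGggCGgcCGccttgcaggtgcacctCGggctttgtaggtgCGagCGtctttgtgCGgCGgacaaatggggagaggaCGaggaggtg
CHGA, H3K18ac only, chr14:92922900-92923099: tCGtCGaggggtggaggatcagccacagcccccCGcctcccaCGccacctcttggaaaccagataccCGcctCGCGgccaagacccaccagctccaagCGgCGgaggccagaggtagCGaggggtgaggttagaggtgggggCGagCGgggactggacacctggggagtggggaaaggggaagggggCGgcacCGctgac
H4C12, H3K27ac only, chr6:27831611-27831810: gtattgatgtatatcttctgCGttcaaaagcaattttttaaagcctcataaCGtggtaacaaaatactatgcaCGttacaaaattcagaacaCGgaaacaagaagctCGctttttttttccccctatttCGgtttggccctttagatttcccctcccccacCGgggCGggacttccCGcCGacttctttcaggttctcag
FOXA1, the pioneer factor of luminal cells, had 23 CpG in this stretch and fold enrichments of 8.23 for H3K18ac and 15.0 for H3K27ac. CHGA had 14 CpG and H4C12 10. The strongest H3K18ac peak of CHGA, chr14:92927895-92930515, lay by an annotated TSS inside the gene and not over this stretch.

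Whole loci were read for genes the study examined, over the gene and 10000 bp on both sides. PAX5, a B cell and neural factor, had 6 regions of both marks, 35 of H3K18ac only and 0 of H3K27ac only, and its highest fold enrichments were 4.18 for each mark. NCAM1, the neural adhesion molecule, had 23 regions of H3K18ac only and none with H3K27ac. DAB1 had 21 regions of both marks and 130 of H3K18ac only, and TNC, an extracellular matrix protein, 3 and 10. SYP had 3 regions of both marks and no other. CHGA had 2 and 3 of H3K18ac only, and KLK3 2 and 1.

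**Figure D5:**
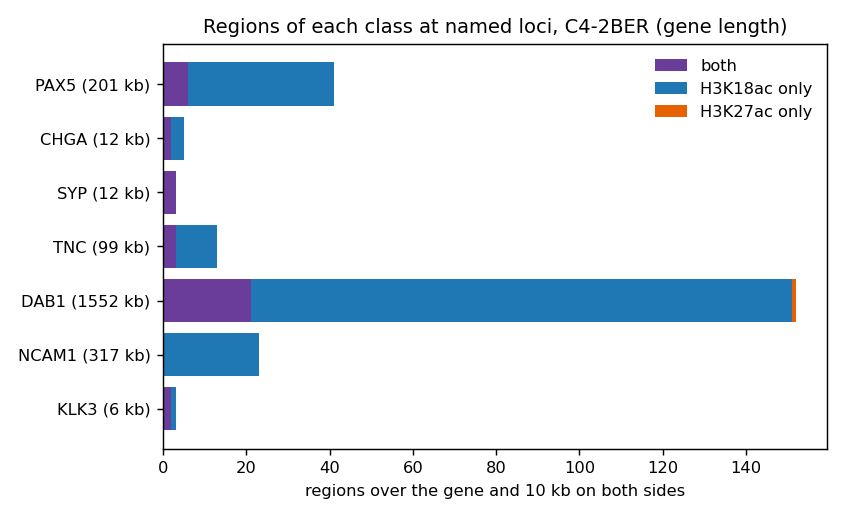
Number of regions of each class (x axis) over each gene and 10000 bp on both sides (y axis, gene length in kb). Regions of H3K18ac only make up most of the bars of PAX5, NCAM1 and DAB1, and SYP has 3 regions, all of both marks.

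The regions of C4-2BER were then set beside the peaks of C4-2B, which were called from separate libraries. Of regions of both marks, 66.6% overlapped peaks of both marks in C4-2B and 10.9% overlapped none. Of H3K18ac-only regions, 57.6% overlapped an H3K18ac peak, 7.39% an H3K27ac peak and 42.2% none. H3K27ac-only regions overlapped an H3K18ac peak of C4-2B (40.4%) more often than an H3K27ac peak (34.4%), with 22.4% overlapping both and 47.6% none. C4-2B itself had 57450 regions of both marks, 137255 of H3K18ac only and 4224 of H3K27ac only. Chromosomes differed as well, with both marks in 45.9% of the regions of chromosome 19 and 46.4% of those of chromosome X, against 25.9% on chromosome 18, and H3K27ac only in 9.49% on chromosome 19.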

How the data were processed

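ChIP-Seq of H3K18ac and H3K27ac in C4-2BER was analysed from the peak lists the authors deposited, 1 per mark. The authors used bowtie2 (2.2.3 in the submitters' processing notes) to place reads on GRCh38, filtered them on mapping quality, duplicates and blacklisted regions, pooled the replicates and called broad peaks with macs2, whose options are not given in the sources used here. For each peak the authors give a fold enrichment, which is a ratio to local background averaged over the peak. They also deposited significance as −log10 of the p- and q-value, of which the q-value was used. The depth of the libraries is unknown.

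Peaks sharing at least 1 bp were merged. Fold enrichment was ranked within its own list as a percentile (100 the highest), and a region takes its peaks' mean weighted by length and their highest percentile. TSSs were taken from GENCODE release 44, for protein-coding genes and lncRNAs. Chromosome lengths were compared first, and 0 peaks passed a chromosome end. Wilson intervals at 95% cover counting error only, and with pooled replicates no test was run. Named genes were the 5 highest by mean percentile, by fold enrichment in each single-mark promoter class and by rank difference each way, the strongest distal and widest regions, the leading and exceptional members of 13 gene lists, and genes the study examined. Some of the genes these rules name, and a sequence, are not reported here. Members and lists were chosen with earlier results of these data known. Alternatives are given in the closing section. Merging and distances were tested on simulated data, where 9300 of 9300 regions were recovered. The software was numpy 2.4.6, pysam 0.24.0, pandas 2.3.3, matplotlib 3.10.9 and scipy 1.17.1, under Python 3.11.15.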

Additional observations from a re-analysis of the deposited data

How the results depend on the processing

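There were 13 other settings and 1 chosen after seeing the data, the regions with single-copy centres. The 15 headline values, on region and promoter classes, width, rank and TSS distance, were each recomputed under those settings that applied to them. Peak layout, extents at promoters, coverage around starts, host genes, copies of centres, motifs and rho were not recomputed. No paired analysis was possible because the authors merged the replicates of each mark before calling peaks. Of 112 recomputed values, 50 stayed within 1.5 times a count or within the 95% interval of a median, and 62 moved. Only the percentile differences could be scored as reversed, and 0 were. The order of the classes was not scored, and it changed in places. At a fold enrichment of at least 4, for example, H3K27ac-only regions (7024) outnumbered H3K18ac-only regions (4265). The lists hold no reads, so weak peaks could not be re-called, and the cause of the changes below was not tested.

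With a fold enrichment of at least 4 there were 21694 regions of both marks and 4265 of H3K18ac only. With a −log10 q of at least 5 there were 37645 regions of both marks, 18377 of H3K18ac only and 3457 of H3K27ac only. With equal numbers of peaks there were 20603 of H3K18ac only and 17980 of H3K27ac only. Protein-coding promoters with H3K18ac only were 506, 973 and 641 under these 3 settings, those with H3K27ac only 754, 170 and 329, and those with neither 6243, 5186 and 4524. With 1 TSS per gene, 111 had H3K27ac only. Neuroendocrine markers with both marks were 4 at a fold enrichment of at least 4 and 5 with 1 TSS per gene.

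The median width of regions of both marks was 3.28 times that of H3K18ac-only regions. It was 3.19 times at a fold enrichment of at least 4, 3.18 at a −log10 q of at least 5, 4.83 with equal numbers, 2.61 for peaks of at least 500 bp, 3.37 with peaks within 1000 bp joined and 3.01 for single-copy centres.

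The median percentile of shared H3K18ac peaks exceeded that of unshared ones by 46.5 points. It did so by 37.9 at a fold enrichment of at least 4, 39.6 at a −log10 q of at least 5, 41.0 with equal numbers, 47.1 when ranked by −log10 q, 40.1 within groups of width, 47.2 within groups of GC content and 48.1 for single-copy centres. For H3K27ac the excess was 39.5 points. It was 41.8 at a fold enrichment of at least 4, 43.6 with equal numbers, 38.5 for peaks of at least 500 bp, 41.3 when ranked by −log10 q, 38.0 within groups of width, 38.6 within groups of GC content and 41.1 for single-copy centres.

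The median TSS distance is given for both marks, H3K18ac only and H3K27ac only in turn. It was 0 bp, 15760 bp and 7453 bp at a fold enrichment of at least 4, and 3124 bp, 16476 bp and 6897 bp at a −log10 q of at least 5. It was 5238 bp, 20214 bp and 5500 bp with equal numbers, and 3958 bp, 14493 bp and 3326 bp for peaks of at least 500 bp. It was 9499 bp, 29034 bp and 3507 bp for TSSs of protein-coding genes, and 14769 bp, 29713 bp and 11796 bp with 1 TSS per gene. The distance of H3K18ac-only regions was 15911 bp on autosomes, 16368 bp with peaks joined and 15491 bp for single-copy centres, where that of both marks was 4874 bp. That of H3K27ac-only regions was 3282 bp with an overlap of 50% of the shorter peak.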
